A study of Bos taurus with 12 samples.

Results

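KRT7, KRT18, KRT19 and VIM encode intermediate filament proteins, and they are described here in bovine conceptuses and in the fibroblasts that served as nuclear donors for cloning. The members are all probe sets whose array annotation gives exactly 1 of these 4 symbols. Each gene had 1 such probe set (Bt.8105.1.S1_at for KRT7, Bt.1745.1.S1_at for KRT18, Bt.12663.1.S1_at for KRT19 and Bt.11149.1.S1_at for VIM). They make up 4 of 9155 genes with a symbol and 4 of 24016 probe sets. All 4 passed the filter on low values in the fit of 12 arrays, and VIM, through its fibroblast signal alone, did not pass it among the conceptuses.

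Keratins are filaments of epithelial cells and assemble only as pairs of a type I and a type II protein. KRT18 and KRT19 are type I keratins of simple epithelia, and KRT7 and KRT8 are type II partners of such epithelia, trophoblast among them. Vimentin forms filaments by itself and is the main intermediate filament of fibroblasts and other mesenchymal cells, so keratins and vimentin are often used together to tell epithelial from mesenchymal cells.

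RNA came from elongated conceptuses of day 16 of gestation, from 3 kinds of embryo that had been placed in synchronized recipient cows on day 7 and were collected at comparable lengths. In the AI group the embryos were conceived in the animal by artificial insemination. In the IVP group both fertilization and early culture took place in the dish, and in the SCNT group the embryo was cloned by somatic cell nuclear transfer. The fourth group, FB, was the donor fibroblasts, which the labels describe only as donor cells, although the titles and tissue field of these arrays also carry the words elongated embryo. Each group had 3 arrays. The labels name no genotype, breed, cell line or sex. They leave unsaid whether separate animals, separate cultures or pools lie behind the arrays, so p-values reflect only the spread of arrays numbered as replications, part of which may be technical. A conceptus is a mixture of cell types, and in such bulk RNA fewer cells of a type and less RNA per cell cannot be told apart.

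The labels were set against marker lists. In the lists below a gene is counted as above background where its brightest probe set exceeded log2 4. Of 13 trophoblast markers on the array, 10 were above log2 4 on each AI array, 9 to 10 on IVP and SCNT arrays and 0 on FB arrays. The mean level of the 10 that could be tested was 11.01 to 11.16 in AI, 10.21 to 10.31 in IVP, 10.30 to 10.41 in SCNT and 2.57 to 2.66 in FB. The lower means in IVP and SCNT came from 1 marker, TKDP2, at 10.51 in AI, 2.82 in IVP and 3.03 in SCNT (named after its value was seen). The mean of the other 9 was 11.11 to 11.16 in AI, 11.01 to 11.17 in IVP and 11.14 to 11.24 in SCNT. Of 16 fibroblast markers 13 were above log2 4 on each FB array and 1 (THY1) on each conceptus array. The collagen gene COL1A1 stood at 8.93 in FB against 2.64, 2.56 and 2.49 in AI, IVP and SCNT. THY1 ran against the label, at 3.07 in FB and 5.09, 4.70 and 5.11 in AI, IVP and SCNT. Hypoblast and yolk sac markers above log2 4 numbered 3 to 5 of 14 in AI, 4 in IVP, 3 in SCNT and 2 in FB. The 2 in FB, TTR at 6.75 and PDGFRA at 4.74, were other genes than those in conceptuses, where both were below log2 4 on every array. Epiblast and mesoderm markers numbered 1 of 5 in AI, 2 in IVP, 2 in SCNT and 0 in FB. None of 8 endometrial epithelium markers exceeded log2 4 on a conceptus array, with the uterine secretory genes SERPINA14 and PAEP at 2.42 to 2.47, and 1 of them (SPP1) did on the FB arrays.

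The 3 keratins were read in all conceptus groups and were at background in fibroblasts, and VIM was the reverse. Signals are given as log2 units of the deposited table, in which values near 2.42 are the lowest the array reading can take and say only that no signal above background was read. KRT18, a type I keratin, read 12.44, 12.22 and 12.01 on the AI arrays, 13.14, 13.00 and 12.89 on the IVP arrays, 13.15, 13.19 and 12.96 on the SCNT arrays and 2.51 on each FB array. Every IVP and SCNT array was thus above every AI array, and the fibroblast arrays were far below all of them. KRT19, the smallest type I keratin, read 12.62, 12.27 and 12.54 in AI, 12.28, 12.36 and 12.34 in IVP, 12.21, 12.04 and 12.09 in SCNT and 2.42, 2.45 and 2.42 in FB. Its SCNT arrays were all below the AI and IVP arrays, whereas AI and IVP overlapped. KRT7, a type II keratin, read 7.03, 6.23 and 6.88 in AI, 5.91, 6.20 and 6.15 in IVP, 6.62, 6.02 and 6.15 in SCNT and 2.45, 2.45 and 2.42 in FB. All AI arrays were above all IVP arrays for KRT7, but AI array 2 fell within the SCNT range. Such separation was common. Of 6892 probe sets tested, arrays did not overlap for 44.3% between SCNT and AI, 37.4% between IVP and AI and 19.7% between SCNT and IVP. VIM read 13.14, 13.01 and 13.13 in FB, and on the conceptus arrays it lay between 2.46 and 2.85. The value of 2.85 was that of AI array 2, and the other 8 conceptus arrays read 2.46 to 2.48.

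**Figure D1:**
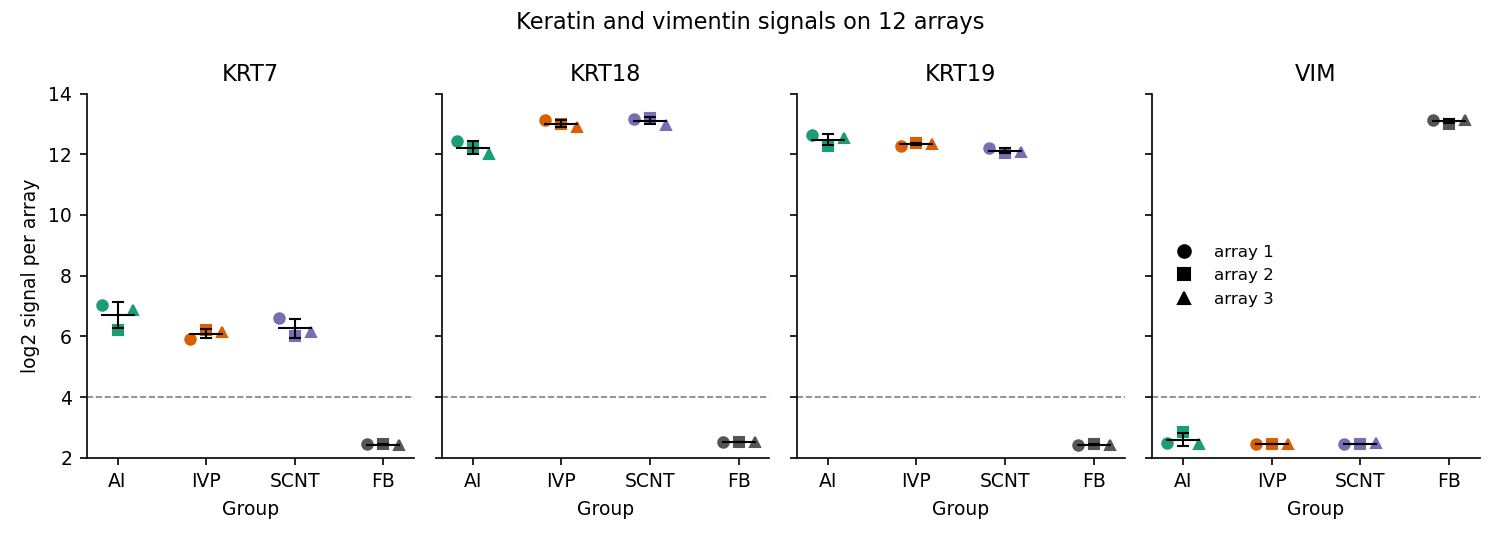
log2 signal (vertical axis) of KRT7, KRT18, KRT19 and VIM on each array by group (horizontal axis), with AI, IVP and SCNT conceptuses and FB fibroblasts; symbols mark array numbers, bars the mean ± SD of 3 arrays and the dashed line log2 4. The keratins are above log2 4 on all 9 conceptus arrays and below it on the 3 FB arrays, and VIM is above it in FB alone, at 13.09 ± 0.07.

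The comparison of fibroblasts with conceptuses asks how the cells that gave the nuclei differed from the conceptuses that arose from them, with AI and IVP conceptuses beside them. All 4 genes passed the test against every conceptus group. A fold is written as "at least" where a group mean lay below log2 4, because the arrays of that group below 4 were then set to 4. VIM averaged 13.09 ± 0.07 in FB (mean ± SD, n = 3) against 2.59 ± 0.22 in AI, 2.46 ± 0.007 in IVP and 2.46 ± 0.01 in SCNT, and was at least 546-fold higher in FB than in each of them (limma, adjusted p = 1.87e-15, 1.73e-15 and 1.73e-15). Its difference was larger in size than that of at least 99.96% of the probe sets tested. KRT18 averaged 2.51 ± 0.003 in FB and was at least 298-fold lower there than in AI, 515-fold lower than in IVP and 549-fold lower than in SCNT (adjusted p = 6.45e-15, 3.76e-15 and 3.68e-15). KRT19 averaged 2.43 ± 0.02 in FB and was at least 357-fold, 322-fold and 277-fold lower (adjusted p = 1.87e-15, 1.99e-15 and 2.32e-15). KRT7 averaged 2.44 ± 0.02 in FB and was at least 6.55-fold, 4.25-fold and 4.81-fold lower (adjusted p = 1.33e-09, 6.04e-09 and 3.78e-09). Most genes differed between fibroblasts and conceptuses: 77.2% of the 8164 probe sets tested passed against AI, 78.7% against IVP and 79.9% against SCNT. Each of the 4 genes entered this fit through the groups in which it was read, so a pass was bound to follow and the values describe rather than test the contrast. A pass by itself is also near the background, and the FB arrays are shared by the 3 comparisons. VIM in FB came within 0.03 log2 units of the brightest probe set of its array, and KRT18 within 0.28 in SCNT, so these probe sets lie at the upper end of the range, where larger amounts may not read higher.

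KRT18 was the only one of the 3 member keratins to pass between conceptus groups. It was higher in SCNT than in AI conceptuses, at 13.10 ± 0.12 against 12.22 ± 0.21 (n = 3 each), a difference of 0.88 (SE 0.14, 95% interval 0.56 to 1.20) or 1.84-fold (1.48 to 2.30, limma, adjusted p = 0.00191). It was also higher in IVP conceptuses, at 13.01 ± 0.12, by 0.79 (95% interval 0.47 to 1.11) or 1.73-fold (1.38 to 2.15, adjusted p = 0.00469). In both comparisons 3 of 3 arrays lay above every AI array. SCNT and IVP differed by 0.09 (95% interval -0.23 to 0.41, adjusted p = 0.849), and their arrays overlapped, so the order of the groups was AI below IVP and SCNT. Since KRT18 lay within 0.37 of the brightest probe set in IVP and 0.28 in SCNT, a difference between this pair could be missed and the folds against AI may be too small. Among 6892 probe sets tested, 27.6% passed between SCNT and AI, 17.9% between IVP and AI and 0.58% between SCNT and IVP. The difference of KRT18 was larger in size than that of 90.0% of probe sets for SCNT and 90.3% for IVP, and groups failed to overlap for 44.3%, 37.4% and 19.7% of probe sets in the same order of comparisons. Both comparisons use the same AI arrays. Leaving out 3 arrays on which the spike-in controls read highest (AI 2 with IVP 2 and 3) left 1 IVP array, which was assumed to vary like the other groups, and gave 0.91 for IVP with an adjusted p of 0.0526.

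A minority of blood cell markers also differed between AI and the other groups. The 4 of 17 leukocyte and blood markers above background in AI were ITGB2, RAC2, CD48 and ALAS2, whose mean per array was 6.95 to 7.81 in AI, 3.10 to 4.18 in IVP and 3.10 to 4.03 in SCNT, and all 4 passed as lower in SCNT and in IVP. Of these, CD48 and ALAS2 exceeded log2 4 on AI arrays alone, so their being lower elsewhere follows from the filter. ITGB2 was above it on 2 IVP arrays and 1 SCNT array, and RAC2 on 3 IVP and 2 SCNT arrays. The leukocyte gene PTPRC and the globin genes HBA and HBB were at 2.42 to 2.45 in every group. Trophoblast markers moved in both directions, with 2 of 10 higher and 2 lower in SCNT than in AI and 2 higher and 3 lower in IVP. Of 5 hypoblast markers tested 3 were lower in SCNT and 2 in IVP. Among those tested, APOA2 and FGG had 0 SCNT arrays above log2 4, and the trophoblast marker TKDP2 was above it on AI arrays alone. Lower values of these genes there were favoured by the filter. The shares of all probe sets that passed were 27.6% for SCNT and 17.9% for IVP. The part of these cell types in the keratin differences was not tested.

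KRT19 and KRT7 had differences of the opposite sign to KRT18 against AI, and none of them passed. KRT19 averaged 12.48 ± 0.19 in AI, 12.33 ± 0.04 in IVP and 12.12 ± 0.09 in SCNT. Its difference between SCNT and AI was -0.36 (SE 0.13, 95% interval -0.65 to -0.08, limma, adjusted p = 0.0592), between IVP and AI -0.15 (-0.44 to 0.14, adjusted p = 0.454) and between SCNT and IVP -0.21 (-0.50 to 0.07, adjusted p = 0.526). The SCNT arrays did not overlap those of the other groups, as held for 44.3% of probe sets tested against AI and 19.7% against IVP. The difference of KRT19 between SCNT and AI was larger in size than that of 58.0% of probe sets. KRT7 averaged 6.71 ± 0.43 in AI, 6.09 ± 0.15 in IVP and 6.26 ± 0.31 in SCNT. Its difference was -0.45 for SCNT against AI (SE 0.22, 95% interval -0.94 to 0.05, adjusted p = 0.158), -0.62 for IVP against AI (-1.12 to -0.13, adjusted p = 0.0772) and 0.18 for SCNT against IVP (-0.31 to 0.67, adjusted p = 0.793). Leaving out AI array 2 changed 3 of these calls. Without it KRT7 was lower by a difference of -0.69 in SCNT (adjusted p = 0.0284) and -0.87 in IVP (adjusted p = 0.0155), and KRT19 by -0.47 in SCNT (adjusted p = 0.0202). KRT19 between SCNT and AI also passed with all 12 arrays in the fit (adjusted p = 0.0183), with a mean-variance trend (0.0170), with arrays centred on their medians (0.0399) and with values under 4 set to 4 (0.0478). It did not pass in 13 of 19 settings, and with 1 array left out its adjusted p in limma reached 0.179. KRT7 did not pass in 17 of 19 settings against AI, for SCNT and for IVP alike. With 1 array left out its adjusted p in limma reached 0.419 for SCNT and 0.225 for IVP.

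**Figure D2:**
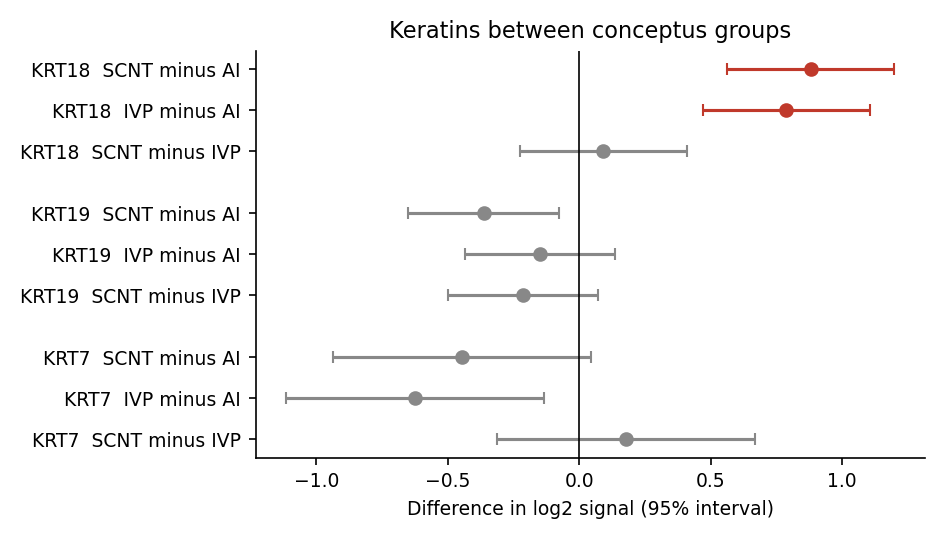
Difference in log2 signal (horizontal axis) of KRT18, KRT19 and KRT7 for each pair of conceptus groups, with 95% intervals; the 2 red points passed at an adjusted p under 0.05. Only KRT18 against AI passed, at 0.88 for SCNT and 0.79 for IVP, while all 4 differences of KRT19 and KRT7 against AI are below 0.

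VIM was not tested between conceptus groups because no conceptus array exceeded log2 4. The cloned conceptuses thus gave no vimentin signal above background, at 2.46 to 2.47, and the donor cells read 13.01 to 13.14.

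Within a group, KRT7 and KRT19 varied together from array to array. The array with the most KRT7 also had the most KRT19 in each group: array 1 in AI, array 2 in IVP and array 1 in SCNT. The array with the least was the same for both genes too, namely AI 2, IVP 1 and SCNT 2. After the group mean was taken from each value, the deviations of KRT7 and KRT19 correlated at r = 0.98 (Spearman's rho 0.98) over 9 conceptus arrays, and 2 of the other tested probe sets had a higher r with KRT7. The correlation was 0.96 over 7 arrays without AI 2 and SCNT 2, the 2 farthest from the median of the KRT7 deviations, both at the low end. KRT18 followed neither, at r = 0.04 with KRT7 and 0.10 with KRT19. Arrays of a group share their tissue source and labelling, the pair was singled out after its values were seen, and these r are a description without a test. The spread itself differed: the pooled SD was 0.32 for KRT7, larger than for 84.7% of probe sets tested, 0.16 for KRT18 and 0.12 for KRT19, against a median of 0.20. The mean of the 4 leukocyte and blood markers named above was 7.81, 6.95 and 7.66 on AI arrays 1, 2 and 3. On IVP arrays it was 3.10, 4.18 and 4.13, and on SCNT arrays 4.03, 3.15 and 3.10. In each group this mean was highest on the array with the most KRT7 and KRT19. It was lowest on the array with the least of them in AI and IVP, but not in SCNT. The part of these blood markers in the spread of the keratins was not tested.

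**Figure D3:**
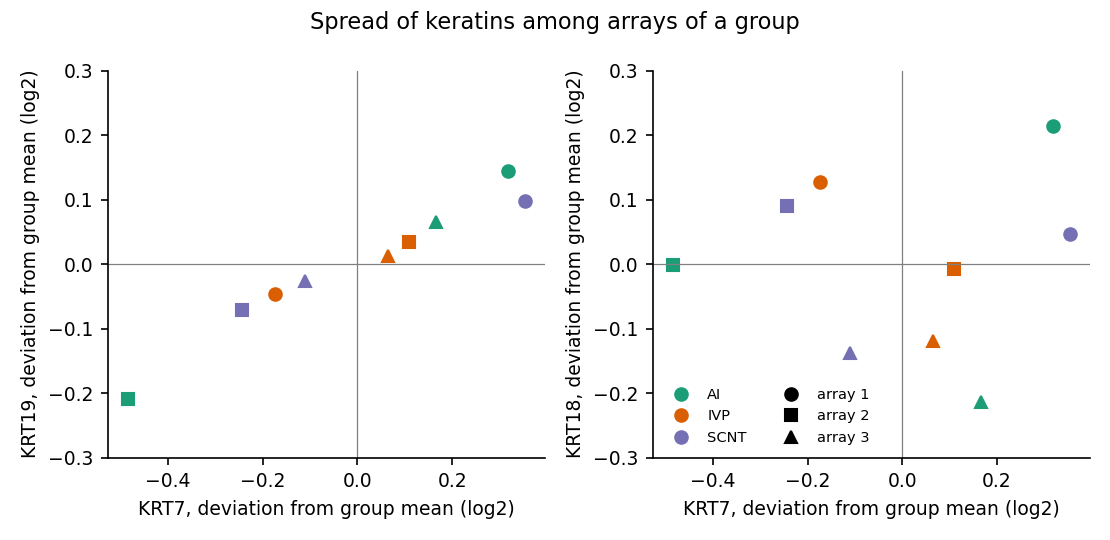
Deviation of KRT19 (left) and KRT18 (right) from the group mean against that of KRT7, in log2 units, for 9 conceptus arrays; colours mark groups and symbols array numbers. KRT19 lies along a line with KRT7 (r = 0.98), with AI array 2 lowest in both at -0.48 and -0.21, and KRT18 is scattered (r = 0.04).

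Array quality measures were set beside these deviations. The mean spike-in signal of AI array 2 was 7.57, against 6.74 and 6.57 on AI arrays 1 and 3, 7.00 to 7.58 in IVP, 6.62 to 6.79 in SCNT and 6.12 to 6.33 in FB. Deviations of the spike-in mean correlated with those of KRT7 at -0.44, of KRT19 at -0.58 and of KRT18 at -0.04 over the 9 arrays. The gap between the GAPDH 3' and 5' control probe sets, which widens as RNA degrades, was 0.21 to 0.38 in AI, 0.35 to 0.89 in IVP, 0.28 to 0.45 in SCNT and 0.01 to 0.06 in FB, and its deviations correlated with those of KRT18 at -0.58, of KRT7 at 0.10 and of KRT19 at 0.08. The part of array quality in the keratin values was not tested. Each array had 6359 to 6643 probe sets above log2 4, or 26.5% to 27.7%.

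Apart from the members, almost no keratin gave a signal. The array held 23 further keratin probe sets of 15 genes with 1 symbol, and 21 of these probe sets, with 13 genes in full, were below log2 4 on all 12 arrays. Among them was KRT8, the usual type II partner of KRT18, whose single probe set read 2.61 to 2.97 on all arrays, with means of 2.76 in AI, 2.76 in IVP, 2.84 in SCNT and 2.61 in FB. A value below background does not show that the transcript was missing, since a probe set can fail to bind it.

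The exceptions were KRT5 and KRT10. KRT5, a type II keratin of basal epithelial cells, read 4.66, 4.76 and 5.001 in AI, 3.13, 3.62 and 2.60 in IVP and 4.08, 4.63 and 3.71 in SCNT, and 2.42 to 2.47 in FB. It was lower in IVP than in AI by a difference of -1.69 (SE 0.27, limma, adjusted p = 0.00262), at least 1.75-fold. Its arrays did not overlap there, as held for 37.4% of probe sets tested. Its differences of -0.67 for SCNT against AI (adjusted p = 0.0927) and 1.02 for SCNT against IVP (0.157) did not pass. In FB it was lower than in AI (adjusted p = 3.20e-06) and SCNT (5.65e-05), and against IVP both groups were below log2 4. KRT5 entered both fits through 3 AI and 2 SCNT arrays alone. Its lower values in IVP and FB thus follow from the filter, and the p-values describe rather than test them. With values under 4 set to 4 the difference between FB and SCNT was -0.23 (adjusted p = 0.168), and that between SCNT and AI passed at -0.57 (0.0321). A second KRT5 probe set was below log2 4 on all arrays, at 2.64 to 3.54.

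KRT10, a type I keratin of differentiating epidermis, ran the other way. It read 3.27, 3.71 and 3.13 in AI, 3.88, 4.25 and 3.99 in IVP, 4.59, 4.11 and 4.28 in SCNT and 5.56, 5.44 and 5.44 in FB. The AI arrays were all below the others, and the FB arrays were above all of them. Arrays failed to overlap for 44.3% of probe sets between SCNT and AI and 37.4% between IVP and AI. The difference was 0.96 for SCNT against AI (at least 1.26-fold, limma, adjusted p = 0.00426) and 0.67 for IVP against AI (at least 1.03-fold, adjusted p = 0.0306). KRT10 entered the conceptus fit through 3 SCNT arrays and 1 IVP array, with 0 AI arrays above log2 4. A higher value than in AI was thus favoured by the filter, and these p-values describe the contrast rather than test it. FB was 2.72-fold higher than IVP (95% interval 2.12 to 3.49, adjusted p = 5.77e-06) and 2.22-fold higher than SCNT (1.73 to 2.85, adjusted p = 3.96e-05). With values under 4 set to 4 the differences from AI were 0.33 for SCNT (adjusted p = 0.105) and 0.08 for IVP (0.721), and the IVP call also ended without AI 1, AI 3, IVP 2 or IVP 3 (adjusted p 0.0644 to 0.104).

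**Figure D4:**
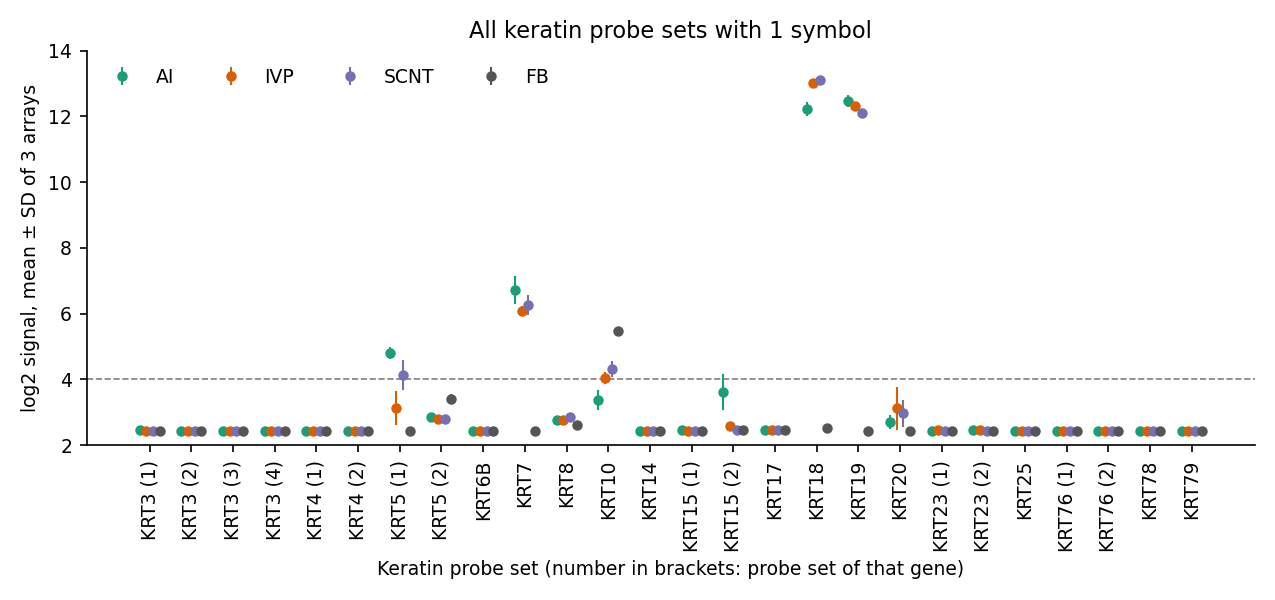
Mean log2 signal ± SD of 3 arrays (vertical axis) for each of the 26 keratin probe sets with 1 symbol (horizontal axis), by group; the dashed line is log2 4. KRT18, KRT19 and KRT7 stand above it in the 3 conceptus groups, KRT5 and KRT10 cross it in some groups, and the remaining probe sets, KRT8 included, stay below it.

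Among other intermediate filament genes 2 of 9 on the array could be tested, the nuclear lamins LMNA and LMNB1. Neither passed between conceptus groups in limma, and 0 of the 2 had an unadjusted p under 0.05 in any of the 3 comparisons. LMNA was higher in FB, at 8.71 against 7.32 in AI, 7.54 in IVP and 7.31 in SCNT (2.61-fold, 2.25-fold and 2.64-fold, adjusted p = 7.06e-05, 2.79e-04 and 6.06e-05). LMNB1 was lower in FB, at least 2.36-fold, 2.72-fold and 2.81-fold (adjusted p = 6.10e-04, 2.57e-04 and 2.07e-04). Unlike LMNA, LMNB1 was above log2 4 on conceptus arrays alone, so its being lower in FB follows from the filter and its folds are a description. The muscle filament gene DES, at 2.43 to 2.62, and the progenitor filament gene NES, at 3.14 to 3.50, had group means below background throughout, and so had the other cytoplasmic filament genes of this list on the array, so that VIM was the only cytoplasmic filament gene outside the keratins, of those listed, above log2 4 in fibroblasts.

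Desmosomes and plakin linkers, which tie keratin filaments to cell junctions, were read mostly in conceptuses. Of 12 such genes on the array 8 were above log2 4 on each AI and IVP array, 7 to 8 on SCNT arrays and 3 on FB arrays. Of the 8 tested, 5 entered the fit through the conceptus arrays alone, so their being lower in FB follows from the filter and their folds are a description. The desmosomal cadherin DSC2 was at least 15.1-fold, 15.4-fold and 15.8-fold lower, and the plakophilin PKP2, which links cadherins to the filaments, at least 11.96-fold, 15.5-fold and 15.2-fold lower. Among the 3 read on both sides, JUP, encoding plakoglobin, was 5.43-fold, 5.45-fold and 5.90-fold lower in FB (limma, adjusted p = 3.68e-09, 3.65e-09 and 2.28e-09). PERP was lower in FB as well, and MACF1, a linker of actin and microtubules, was higher (8.07 against 5.87, 6.33 and 6.65), the last named after its values were seen.

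Between conceptus groups few genes of this list passed. Of the 8 genes 0 passed between SCNT and AI in limma (2 had an unadjusted p under 0.05), 1 was lower in IVP than in AI and 0 differed between SCNT and IVP (0 at an unadjusted p under 0.05), where 27.6%, 17.9% and 0.58% of all probe sets passed. The median differences were 0.10, 0.02 and 0.06 beside 0.08, 0.02 and 0.06 for all probe sets. The 0 between SCNT and AI became 1 or 2 in 11 of 19 other settings. The 1 gene was PERP, a desmosome component, which was 1.45-fold lower in IVP (95% interval 1.14 to 1.86, adjusted p = 0.0406), and its call ended without any of AI 1, AI 2, IVP 1, IVP 3 or any 1 SCNT array (adjusted p 0.0522 to 0.131). DSC2 stood at 7.91, 7.95 and 7.99 in AI, IVP and SCNT and PKP2 at 7.58, 7.96 and 7.93, neither passing. KRT18 passed as higher in SCNT and IVP than in AI, and none of these 8 genes did. At an unadjusted p under 0.05 in limma, MACF1 was higher (0.77) and PERP lower (-0.47) in SCNT than in AI. For IVP against AI, PKP2 (0.38) and PNN (0.33) were higher and PERP lower (-0.54) at that level. Whether KRT18 and these genes differed in their changes was not tested.

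Epithelial identity genes were likewise read mostly in conceptuses. Of 12 on the array 10 to 11 were above log2 4 on AI arrays, 10 on IVP and SCNT arrays and 2 on FB arrays, so 8 of the 10 tested entered the fit through the conceptus arrays alone. The adhesion gene EPCAM was at least 50.9-fold, 58.3-fold and 60.5-fold lower, E-cadherin (CDH1) at least 28.8-fold, 17.4-fold and 18.3-fold and the splicing regulator ESRP1 at least 16.0-fold, 12.9-fold and 15.0-fold. The 2 read on both sides were SPINT2, at 5.45 in FB against 9.53, 8.84 and 8.71 in AI, IVP and SCNT, and KLF5, at 5.68 against 5.41, 5.47 and 5.24, both named after their values were seen. Between SCNT and AI 0 of the 10 rose and 2 fell, where 27.6% of all probe sets passed: the protease inhibitor gene SPINT2 (1.77-fold lower, 95% interval 1.31 to 2.39, adjusted p = 0.0111) and CDH1 (1.57-fold lower, 1.26 to 1.95, adjusted p = 0.00755). Between IVP and AI 3 of 10 fell, where 17.9% of all probe sets passed, namely RAB25 of apical vesicle traffic (2.47-fold, 1.78 to 3.41, adjusted p = 0.00263), CDH1 (1.65-fold, 1.33 to 2.05, adjusted p = 0.00674) and SPINT2 (1.62-fold, 1.20 to 2.18, adjusted p = 0.0324). The median differences were -0.17 and -0.27, beside 0.08 and 0.02 for all probe sets, and between SCNT and IVP 0 of 10 passed in limma (1 at an unadjusted p under 0.05). EPCAM, at 9.67, 9.87 and 9.92 in AI, IVP and SCNT, did not pass. Without the 3 arrays of high spike-in signal, which leaves 1 IVP array, the 3 IVP differences were -1.003, -0.68 and -0.54 and did not pass (adjusted p = 0.0932, 0.0957 and 0.158). The IVP call of SPINT2 also ended without AI 1, AI 2, AI 3 or IVP 3 (0.0537 to 0.104).

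Mesenchymal and epithelial-mesenchymal transition genes were read more often in fibroblasts. Of 12 on the array 9 were above log2 4 on each FB array, 4 to 5 on AI arrays and 4 on IVP and SCNT arrays. Of the 9 tested, ZEB1, CDH11, S100A4, ACTA2 and LOX entered the fit through FB, apart from ACTA2 on 2 AI arrays, so their being higher in FB follows from the filter. Of the 4 read on both sides, SPARC and TAGLN were higher in FB against each group, CDH2 was higher in FB than in AI, and FN1 was lower than in IVP. The calcium-binding protein gene S100A4, an often used fibroblast marker, was at least 358-fold higher in FB than in each group, the cadherin CDH11 at least 45.3-fold, and smooth muscle actin ACTA2 145-fold higher than in AI (95% interval 79.9 to 262) and at least 166-fold higher than in IVP and SCNT. The repressor of CDH1, ZEB1, read 5.36 in FB and 2.42 in each conceptus group, whereas SNAI1, another such repressor, read 2.70 to 2.81 in all groups. Fibronectin (FN1) was high in both, at 10.90, 11.33 and 10.88 in AI, IVP and SCNT and 10.82 in FB.

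Between conceptus groups 4 mesenchymal genes could be tested, and 1 passed against AI, beside 27.6% of all probe sets for SCNT and 17.9% for IVP. N-cadherin (CDH2) was higher in SCNT (1.94-fold, 95% interval 1.58 to 2.39, limma, adjusted p = 8.61e-04) and in IVP (1.73-fold, 1.41 to 2.13, adjusted p = 0.00337) than in AI, at 5.63, 5.47 and 4.67, while CDH1 was lower in both. With 1 IVP array left, without the 3 arrays of high spike-in signal, the IVP difference was 0.82 and did not pass (adjusted p = 0.0660). FN1, SPARC and TAGLN did not pass in any of the 3 comparisons.

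**Figure D5:**
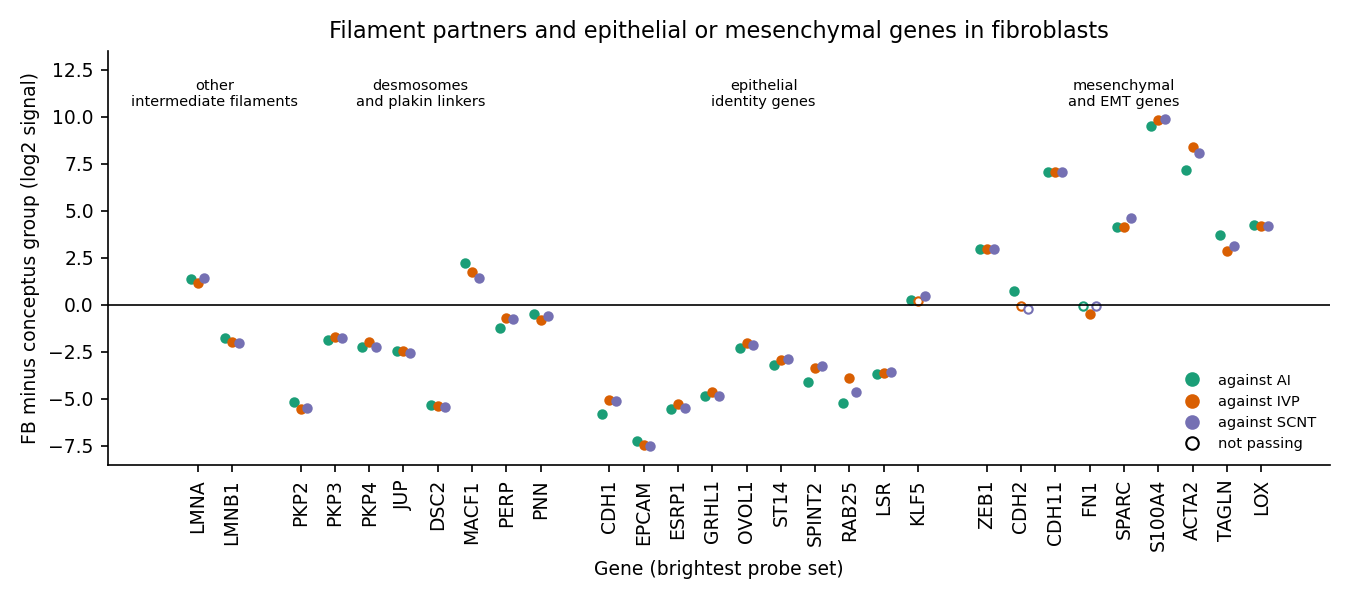
Difference in log2 signal between FB and each conceptus group (vertical axis) for the tested genes of 4 lists (horizontal axis); filled points passed at an adjusted p under 0.05 and a group below log2 4 enters with its background value. EPCAM is farthest below 0, S100A4, ACTA2 and CDH11 are farthest above it, and KLF5 and FN1 lie near it.

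The genes most like each member were taken as the 3 with the highest Pearson r. Over the 9 conceptus arrays, KRT18 was closest to GPD1L (r = 0.98), RIDA (0.98) and DNASE1L3 (0.97). GPD1L read 5.34 in AI, 7.46 in IVP and 7.86 in SCNT, and DNASE1L3 read 6.09, 8.74 and 8.56. KRT19 was closest to SAP30L (0.97), GNAS (0.96) and PLEKHH3 (0.95), all highest in AI and lowest in SCNT among conceptuses. KRT7 was closest to CXXC5 (0.98), NFIL3 (0.97) and MRFAP1L1 (0.96), all highest in AI and lowest in IVP. These r mix differences between groups with the spread within them. Over all 12 arrays r mainly reflects the gap between fibroblasts and conceptuses: KRT18 was closest to the trophoblast product PAG11 (0.998), KRT19 to SLC39A2 and the endoderm factor GATA6 (both above 0.999) and TKDP1 (0.999), KRT7 to STARD10 (0.996), CDCA8 (0.993) and COX5A (0.993), and VIM to the matrix gene DCN, the chemokine CCL2 and the collagen COL3A1 (each 0.9999). THEM4 (0.998) and PRXL2A (0.997) completed the list of KRT18. PAG11 read 11.94 in AI, 13.00 in IVP and 13.15 in SCNT, the same order of groups as KRT18.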

How the data were processed

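Per the labels' protocols, total RNA was amplified, labelled with biotin and read on Affymetrix bovine arrays, and GCRMA and limma are named in the submitters' processing notes. The authors deposited 1 table of log2 signals, with 24128 probe sets and 12 arrays. The sources used here give neither the versions of these tools nor whether normalization covered all arrays at once. Values spanned 2.42 to 13.66, and 36.8% of values were at the lowest (to within 0.01). The 112 control probe sets were left out. Of the rest, 13292 carried a single symbol, 86 more than 1 and 10638 no symbol. 13263 matched a gene ID of ARS-UCD2.0, used for names and gene order only.

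The log2 values were used as deposited. Probe sets above log2 4 on 3 or more of the fitted arrays entered limma 3.58.1 in R 4.3.3 (lmFit and eBayes, 1 coefficient per group): 6892 over the 9 conceptus arrays (6 residual degrees of freedom) and 8164 over 12 arrays (8). Tests were two-sided, and an adjusted p (Benjamini-Hochberg over all probe sets tested) under 0.05 was called. The median standard error of a difference was 0.16 between conceptus groups. The procedure was also run on simulated data with independent normal values and planted changes. That setting is simpler than these data, and no result here rests on it.

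The members, 12 gene lists and rules were chosen with earlier results of these data known. The lists hold type I and type II keratins, other intermediate filaments, desmosomes and plakin linkers, epithelial identity, mesenchymal genes, and markers of trophoblast, hypoblast, epiblast and mesoderm, fibroblasts, leukocytes and blood, and endometrial epithelium. Each listed gene is given by its brightest probe set, and up to 4 called genes per list and comparison, with the largest differences, are named, besides KRT8 and keratins above log2 4 on 3 arrays. Others named were singled out after their values were seen. Alternatives were other filters, normalizations, floors, variance models, fitted groups, a replicate block and omitted arrays.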

Additional observations from a re-analysis of the deposited data

How the results depend on the processing

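Of 171 alternative values for the 9 keratin results between conceptus groups 159 kept direction and side of the threshold, and all 264 of the 12 results against fibroblasts did. KRT18 in SCNT against AI passed in all 19 settings (0.70 to 0.99, adjusted p from 3.09e-04 to 0.0185). KRT18 in IVP against AI ran from 0.68 to 0.91, and without the 3 arrays of high spike-in signal, which leaves 1 IVP array assumed to vary like the other groups, its 0.91 did not pass (adjusted p = 0.0526). In that setting KRT18 between SCNT and IVP changed sign to -0.035 (adjusted p = 0.990, 1 IVP array), and KRT7 (-0.69, adjusted p = 0.0410) and KRT19 (-0.47, adjusted p = 0.0364) passed between SCNT and AI. KRT19 between SCNT and AI also passed at -0.39 with median centring and at -0.36 with values under 4 set to 4, with all 12 arrays in the fit and with a mean-variance trend. KRT7 between IVP and AI passed at -0.62 with all 12 arrays (adjusted p = 0.0455). With 1 array left out at a time, KRT7 ran from -0.69 to -0.29 in SCNT and from -0.87 to -0.46 in IVP against AI, and KRT19 from -0.47 to -0.29 in SCNT. Probe sets called between SCNT and AI fell from 1902 to 984 with no filter and to 1190 without SCNT 2. Between IVP and AI they fell from 1234 to 484 with no filter, 580 without the 3 arrays and 794, 798 and 814 without AI 3, IVP 1 and IVP 3. Between SCNT and IVP they numbered 40, but 7 with no filter, 127 with all 12 arrays, 23 with the replicate block, 5 without the 3 arrays and 9 to 66 with 1 array left out. Between IVP and AI, CDH1, RAB25 and CDH2 lost their calls without the 3 arrays. CDH1, RAB25, CDH2 and KRT5 kept them under the other settings in which they were tested, except that RAB25 (adjusted p = 0.0525) and KRT5 (0.0597) lost theirs with no filter, as did KRT10 (0.0515) and SPINT2 (0.0948) between SCNT and AI and KRT10 (0.173), SPINT2 (0.190) and PERP (0.164) between IVP and AI. With the filter raised to log2 5, KRT5 and KRT10 were not tested between conceptus groups and so had no call. PERP also lost it with median centring (0.0552), and PERP (0.207) and KRT10 (0.121) without the 3 arrays.

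The labels number the arrays 1 to 3 in each group. Same-numbered arrays of different conceptus groups did not deviate together (r from -0.15 to 0.15, with 2 of 9 pairs over 0.1), so the numbers were not taken as pairs. With the number as a replicate block KRT18 kept its calls (adjusted p = 0.00248 for SCNT and 0.00532 for IVP against AI), and no member's call changed. Averaging the probe sets of a gene was not run because each member had 1. Signals near 2.42 are only bounds, so differences among conceptuses in VIM, KRT8 and most keratins could not be read.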

Other observations

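The genes beside the members in the ARS-UCD2.0 gene order were read for comparison, a description chosen after the data had been seen. Of the 10 protein-coding genes nearest to KRT18, 5 on each side, 9 were on the array and 2 exceeded log2 4 on at least 3 arrays. EIF4B, a translation initiation factor next to KRT18, read 8.79 in AI, 8.49 in IVP, 8.42 in SCNT and 8.04 in FB. IGFBP6, which binds insulin-like growth factor, read 10.18 in FB and 2.75 to 3.27 in the conceptus groups, the reverse of KRT18. On the other side of KRT18 lie KRT8, KRT78, KRT79, KRT4 and KRT3, whose group means were all 2.42 to 2.84.

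Of the 10 genes nearest to KRT19, 3 were on the array, the keratins KRT15, KRT14 and KRT17, and none exceeded log2 4. KRT15 had its highest mean in AI, at 3.62 ± 0.54 against 2.60, 2.46 and 2.45 in IVP, SCNT and FB, all below background. Of the 5 genes on the array near VIM, 4 were above log2 4 on at least 3 arrays (PTER, RSU1, TRDMT1 and STAM), with STAM at 4.60, 4.51 and 4.67 in AI, IVP and SCNT and 4.98 in FB. Near KRT7, 2 genes were on the array and 1 (ATG101) was above it.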
